A study of Mus musculus with 14 samples.

Results

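The 35 genes described here encode the coagulation and fibrinolysis system of mouse liver: the fibrinogen chains, the clotting factors, tissue factor, the anticoagulants, plasminogen with its activators, and the inhibitors of fibrinolysis. They were chosen by symbol, and all 35 were found among the 51912 genes counted. RNA from the left liver lobe was sequenced in 14 libraries of untreated animals aged 20 weeks, all of them homozygous for a floxed allele of Tet2, which encodes a dioxygenase acting on methylated cytosine. The control group (4 libraries) was Tet2fl/fl cre- and came from healthy littermates that keep Tet2. The asymptomatic group (5 libraries) and the group with spontaneous autoimmune hepatitis (AIH, 5 libraries) were both Tet2fl/fl vav cre+, in which cre is driven from vav regulatory elements that are active in blood-forming cells, so the allele in hepatocytes is not the intended target. No group had cre without the floxed allele. The labels do not say how the libraries relate to litters or cages, so the p-values measure only the spread between these libraries, which may in part be technical.

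Hepatocytes secrete most clotting proteins into plasma as inactive precursors. Tissue factor on cells outside the blood starts the cascade, thrombin turns fibrinogen into fibrin, and antithrombin, the protein C system and tissue factor pathway inhibitor hold it in check. Plasmin, released from plasminogen by its activators, dissolves the clot. Several parts of the system are made elsewhere than in hepatocytes: von Willebrand factor and thrombomodulin in endothelium, and the A subunit of factor XIII in macrophages and megakaryocytes.

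Promoter windows were examined because the fibrinogen chains varied together, and 27 of the 35 genes had a RefSeq window (GRCm38.p6) whose 250 bases before the transcription start were searched on both strands for short motifs. The interleukin-6 response element CTGGGAA stood in 9.10% of all 32851 windows and in those of Fgg, Fgb, F9 and Tfpi. The AP-1 motif TGACTCA stood in 4.46% of all windows and in those of Fgb, Plaur, Procr, F3 and F2r. The STAT palindrome TTCNNNGAA was found in 7.02% of windows and before F9, Fga, Fgb and Pros1, where in F9 it overlaps CTGGGAA on the other strand. The C/EBP motif TTGCNNAA was found in 9.56% of windows and before 9 of these genes, Fga, Fgb, Plaur and Procr among them, and the HNF1 motif GTTAAT in 6.43% and before F13b, Fga, Fgb and Proz. The 10-letter NF-kB consensus (0.140%) and the HNF4 letters CAAAGTCCA (0.384%) were in none of the 27 windows, and TATAAA (12.4%) stood before Klkb1 and Tfpi. Stretches of 100 bases are shown for 2 fibrinogen chains, which varied together between libraries, and for Procr, a cell surface receptor called higher in AIH. Capitals mark CTGGGAA in the fibrinogen chains and TGACTCA in Procr, and each is a match of letters, not a shown binding site.
Fgg, chr3:83007624-83007723, plus strand: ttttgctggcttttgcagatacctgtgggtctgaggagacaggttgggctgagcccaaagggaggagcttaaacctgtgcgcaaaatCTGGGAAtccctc
Fgb, chr3:83049901-83050000, minus strand: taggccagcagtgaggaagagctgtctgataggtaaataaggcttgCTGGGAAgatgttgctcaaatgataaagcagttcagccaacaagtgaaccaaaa
Procr, chr2:155751017-155751116, plus strand: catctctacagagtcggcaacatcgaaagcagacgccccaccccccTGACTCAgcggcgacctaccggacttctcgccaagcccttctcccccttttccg

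Gene counts totalled 16.0 to 18.9 M (mega) per library, and values below are CPM, counts scaled to library size by TMM, which equalizes the bulk of genes between libraries. By Xist and 4 Y-linked genes the controls split evenly by sex (2 and 2), the 5 asymptomatic livers were male, and 4 of the 5 AIH livers were female, AIH 4 being the male. Sex and AIH are therefore partly confounded. Reads that were not aligned made up 4.17% to 4.89% in controls, 4.93% to 9.27% in asymptomatic livers and 3.23% to 6.54% in AIH livers. The library numbers in the labels were 1 to 7 in controls, 5 to 10 in asymptomatic livers and 11 to 15 in AIH, and if they give an order of preparation it cannot be told apart from AIH. Tet2 itself, whose counts also cover parts outside a deletion, measured 8.53 to 11.98 CPM in controls, 4.77 to 9.23 in asymptomatic livers and 7.34 to 15.4 in AIH livers. It passed the test in none of the comparisons (edgeR, smallest adjusted p = 0.0794). AIH 3 was the highest AIH library for 24 of the 35 genes (68.6%, against 22.1% of all tested genes), so results that rest on it are given without it. Among controls, control 3 was highest for 21 of the 35 (60%, against 30.3% of all genes) and control 4 lowest for 21 (60%, against 23.9%).

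In AIH against control livers, 7 of the 35 genes were higher and 1 was lower. The higher ones were F13a1 and Vwf among the factors, Procr and Thbd among the anticoagulant receptors, Plat and Plaur of the plasminogen activation system, and the protease inhibitor gene A2m. The lower one was F5, the cofactor of factor Xa. A gene was called at an adjusted p under 0.05 in edgeR's quasi-likelihood test over 14638 genes. The 8 called genes make 22.9% of the 35, beside 21.7% of all tested genes (15.6% higher and 6.08% lower), so this share is near the background. At an unadjusted p under 0.05 there were 15, beside 34.0% of all genes. The median log2 difference was 0.45 over the 35 genes and -0.013 over all genes. Libraries of the groups did not overlap for 5 higher genes, where the background is 13.2%, and for 1 lower gene, where it is 6.61%. Scaling by library totals alone, which shifts the median of all genes to 0.14, gave 13 higher and 0 lower.

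AIH and asymptomatic livers share the genotype, and between them 8 genes were higher in AIH and 2 were lower. F13a1, Vwf, Procr, Tfpi, Pros1, Plau, Plat and Plaur were higher, and F5 and Proc were lower. These 10 make 28.6% of the 35, beside 29.8% of all tested genes (19.1% higher, 10.7% lower). An unadjusted p under 0.05 was reached by 14 of the 35 and by 41.4% of all genes. Groups did not overlap for 5 higher genes (12.3% of all genes) and 1 lower gene (4.65%). With library totals alone the counts were 10 and 0, and the median of all genes moved from -0.032 to 0.17. The asymptomatic group is all male and AIH has 1 male. With sex as a term Plau and Plat remained called and no other of the 35 did. Over all genes that term took the calls from 2796 higher and 1559 lower to 1222 and 150. With the unaligned share as a term none of the 35 was called, beside 544 higher and 18 lower of all genes. The 2 comparisons share the AIH libraries, so they are not separate evidence.

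**Figure D1:**
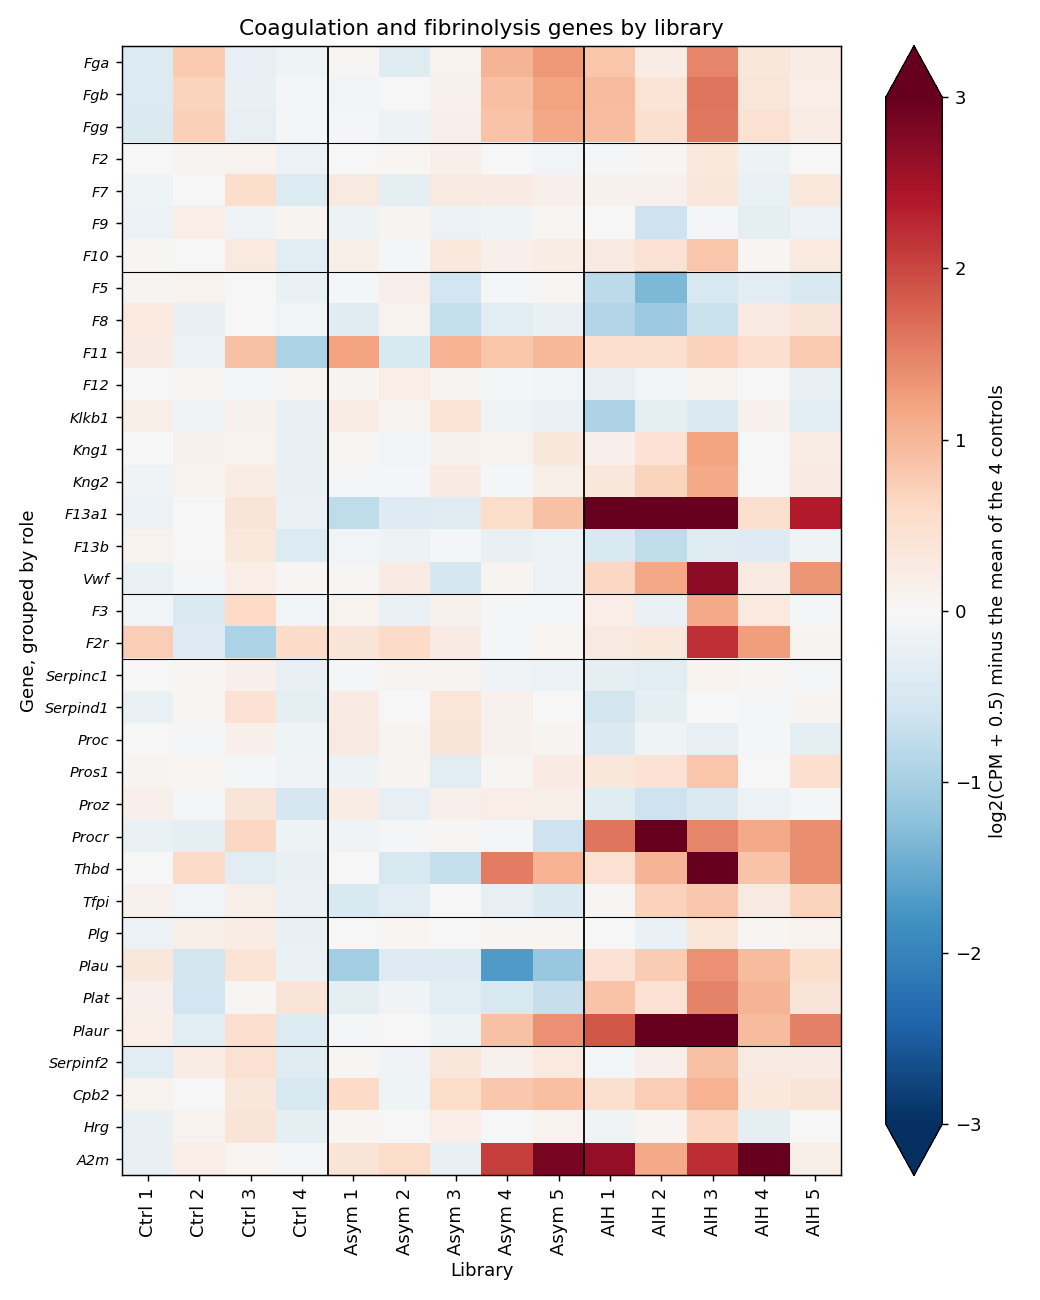
Each of the 35 genes (rows, grouped by role with lines between roles) in each of the 14 libraries (columns); colour is log2(CPM + 0.5) minus the mean of the 4 controls, capped at 3 either way. F13a1 is dark red in several AIH libraries, Plaur in AIH 2 and 3, A2m in AIH 1 and 4, and Procr in AIH 2 only. The other AIH libraries are a paler red for Procr. The fibrinogen chains redden together in control 2, asymptomatic 4 and 5, and AIH 1 and 3, and F5 is blue across AIH.

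**Figure D2:**
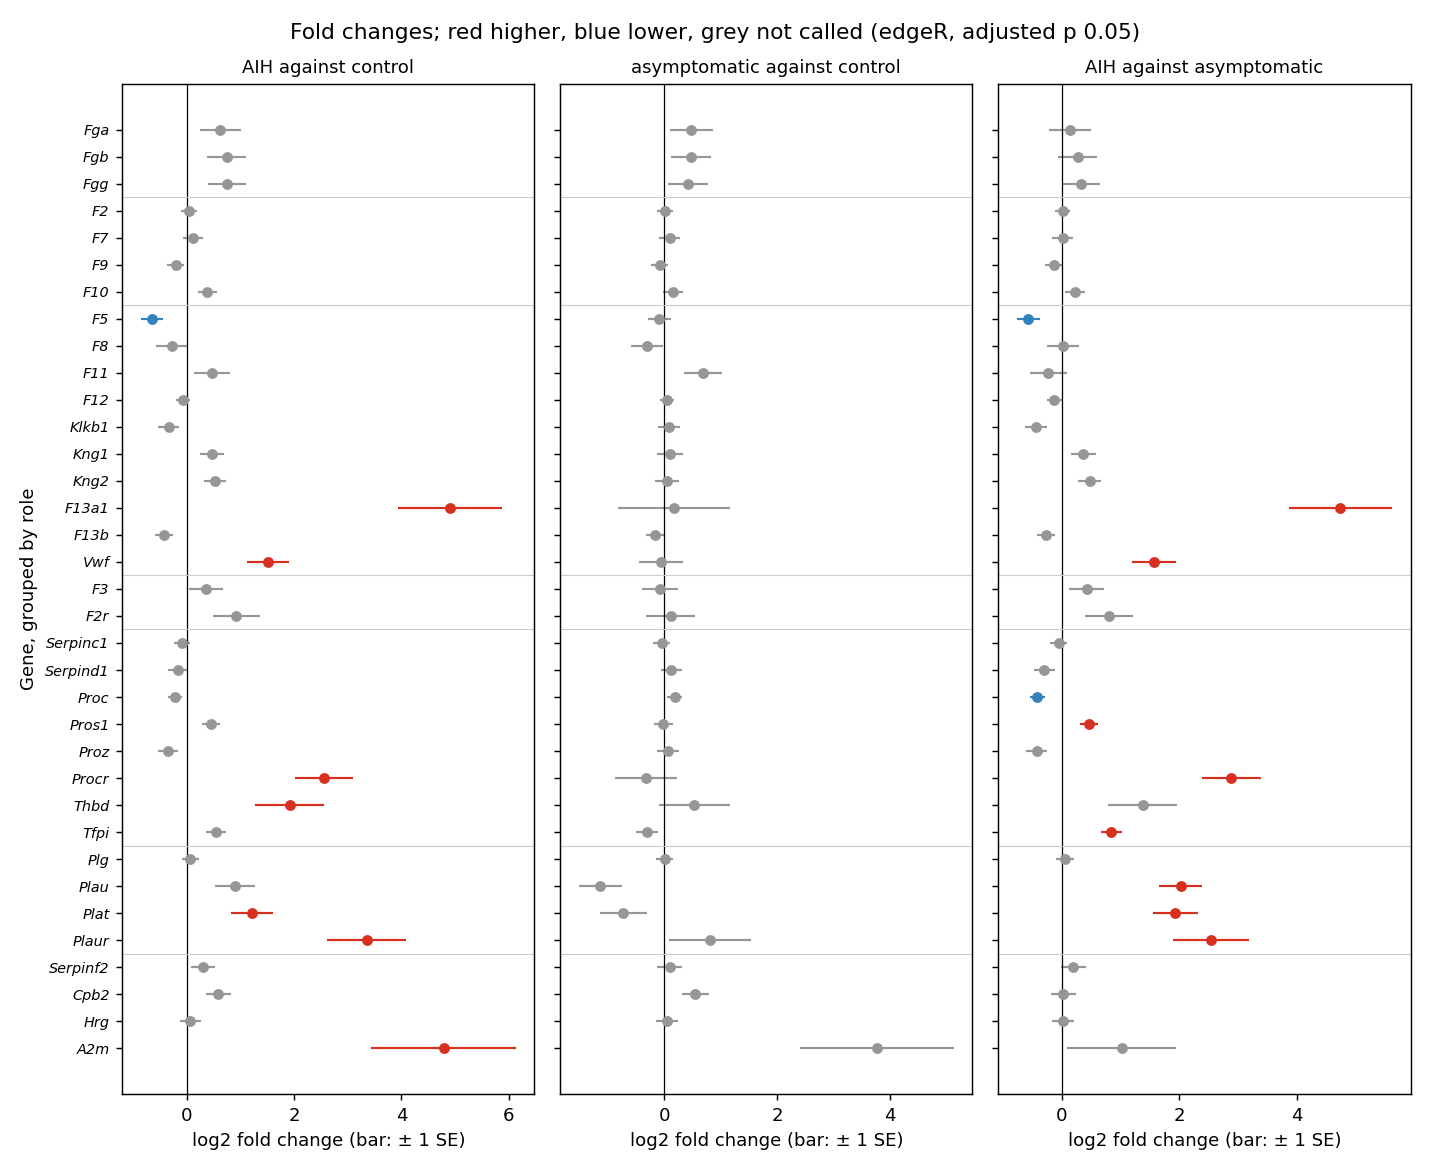
Log2 fold change of each gene (points, with bars of 1 SE either side) in the 3 comparisons; red marks genes called higher, blue genes called lower and grey those not called. AIH against control holds 7 red points and 1 blue, AIH against asymptomatic 8 and 2, and asymptomatic against control none.

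All 7 genes higher against controls and 7 of the 8 against asymptomatic livers averaged under 20 CPM, a division drawn after the values had been seen and not tested. F5, Proc and Pros1, which were called too, are abundant, and F3 is scarce and was not called. Of the 25 genes with a mean of at least 20 CPM over all libraries, 0 were higher and 1 lower in AIH against control, while 7.28% and 12.2% of all genes at that level were. Of the 10 genes under 20 CPM, 7 were higher and 0 lower, beside 20.9% and 2.16% of all genes at that level. Against asymptomatic livers the abundant genes gave 1 higher and 2 lower (9.04% and 18.0% of all genes at that level), and the scarce ones 7 and 0 (25.5% and 5.94%). The abundant genes are mostly those that hepatocytes secrete, and the scarce ones include the genes of endothelium, macrophages and megakaryocytes. In bulk tissue, fewer or more cells of a type cannot be told apart from less or more RNA per cell.

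Per length, as CPM per kilobase of the main transcript, the fibrinogen chains led the control livers with 2030.2 ± 792 for Fgg, 1808 ± 775 for Fga and 1162 ± 423 for Fgb (SD, n = 4). High molecular weight kininogen Kng1 (1019 ± 108), plasminogen Plg (951 ± 154) and prothrombin F2 (908 ± 80.0) followed, all 3 within each other's spread. Hrg, a plasma glycoprotein that binds heparin and plasminogen, measured 582 ± 127 and antithrombin Serpinc1 441 ± 49.9 CPM per kilobase. At the other end stood Procr with 0.445 ± 0.250, Plaur with 0.382 ± 0.218, Plat with 0.307 ± 0.129, F13a1 with 0.120 ± 0.0502 and A2m with 0.0182 ± 0.0158, the first 3 of which overlap. The 35 genes together took 2.23% to 5.26% of all gene counts in a library, and the 3 fibrinogen chains 0.854% to 3.30%.

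The 3 fibrinogen genes lie next to each other on chromosome 3 (GRCm38; Fgg at chr3:83007724-83015049, Fga at chr3:83026076-83033627 and Fgb at chr3:83040141-83049863) and encode the chains of the fibrin precursor. They passed the test in no comparison, and varied widely inside every group. Fga measured 3297, 7652, 3734 and 4028 CPM in controls 1 to 4, 4502, 3442, 4786, 8999 and 10921 CPM in asymptomatic livers 1 to 5, and 7873, 5109.6, 12253, 5552 and 5180.3 CPM in AIH livers 1 to 5. Fgb measured 3202, 6781, 3616 and 4116 CPM in controls 1 to 4, 3977, 4274, 4653, 7955 and 9843 CPM in asymptomatic livers 1 to 5, and 8192, 5606, 12858, 5440.2 and 4863 CPM in AIH livers 1 to 5. Fgg measured 2436, 5404, 2757 and 3168 CPM in controls 1 to 4, 3215, 2959, 3664, 5926 and 7276 CPM in asymptomatic livers 1 to 5, and 6172, 4593, 9784, 4486 and 3825 CPM in AIH livers 1 to 5. Control 2, asymptomatic 4 and 5, and AIH 1 and 3 were high for all 3 chains, and the groups overlap. The log2 difference of AIH against control was 0.62 ± 0.39 for Fga, 0.74 ± 0.36 for Fgb and 0.75 ± 0.35 for Fgg (SE), with edgeR adjusted p = 0.279, 0.161 and 0.148. The 95% intervals of these differences, not adjusted for the number of genes, ran from -0.14 to 1.38 for Fga, from 0.0360 to 1.44 for Fgb and from 0.0594 to 1.43 for Fgg.

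The chains kept close proportions while their total moved. Summed over the 3 genes, the lowest library had 8934 CPM and the highest 34895, a 3.91-fold range. The count ratio of Fga to Fgb stayed between 0.805 and 1.13, and that of Fgg to Fgb between 0.692 and 0.825. Fibrinogen is an acute phase protein, and 9 of 20 other acute phase genes were higher in AIH against control and 0 lower. Orm1, orosomucoid, differed by 2.15 ± 0.41 (SE, adjusted p = 0.00198) on the log2 scale and Hpx, hemopexin, by 1.58 ± 0.31 (SE, adjusted p = 0.00239) in the edgeR test. The summed level of these 20 genes was 16616 to 32997 CPM in controls, 20881 to 30488 in asymptomatic livers and 23251 to 74764 in AIH livers. Orm1 measured 288, 343, 488 and 236 CPM in controls 1 to 4, 665, 343, 744, 805 and 955 CPM in asymptomatic livers 1 to 5, and 1267, 2021, 2485, 520.0 and 1215 CPM in AIH livers 1 to 5. Within each group the summed level was highest in control 2 (32997 CPM), asymptomatic 4 and 5 (30488 and 29735) and AIH 3 (74764). These libraries were also high for the chains. AIH 1, high for the chains too, had a sum of 43330 CPM, below AIH 2 at 47836. AIH 3 was the highest library for Orm1. The lowest AIH library was AIH 4 for Orm1, AIH 5 for Fgb and Fgg, and AIH 2 for Fga. The part of the acute phase in the fibrinogen levels was not tested.

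**Figure D3:**
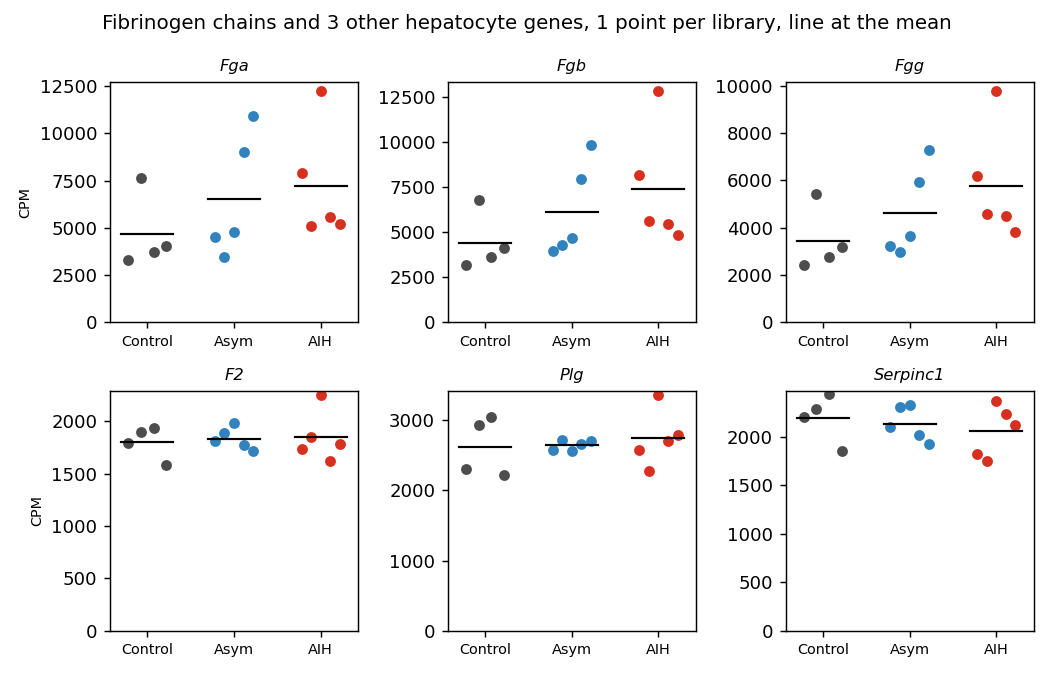
CPM (linear axes from 0) of the 3 fibrinogen chains, F2, Plg and Serpinc1, 1 point per library with a line at each group's mean. The fibrinogen chains spread from about the control level to AIH 3 at 12253 CPM for Fga, while F2, Plg and Serpinc1 lie in narrow overlapping bands in all 3 groups.

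The vitamin K dependent clotting factors, serine protease precursors that need carboxylation of glutamate, passed no test in any comparison. F2 measured 1794, 1898, 1941 and 1585 CPM in controls 1 to 4, 1810.1, 1886, 1988, 1774 and 1713 CPM in asymptomatic livers 1 to 5, and 1737, 1853, 2256, 1624 and 1785 CPM in AIH livers 1 to 5. The groups overlap for this gene, prothrombin, with AIH 3 highest and control 4 lowest, and the log2 difference of AIH against control was 0.04 ± 0.14 (SE; edgeR adjusted p = 0.889). F7, the partner of tissue factor, and F10, the enzyme that cuts prothrombin, are neighbours on chromosome 8 (chr8:13026034-13035809 and chr8:13037308-13056676). F10 averaged 423 ± 74.4 CPM in controls, 471 ± 39.3 CPM without symptoms and 551 ± 116 CPM with AIH (SD, n = 4, 5 and 5), with a log2 difference of 0.38 ± 0.18 for AIH against control (edgeR adjusted p = 0.146). F7 and F9, the factor missing in haemophilia B, differed by 0.12 ± 0.19 and -0.21 ± 0.15 on the log2 scale in the same comparison (SE). Of the factors in this group, F10 alone had an unadjusted p under 0.05 in AIH against control.

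F5, the cofactor that speeds prothrombin cutting, was the one clotting factor called lower. F5 measured 814, 833, 764 and 672 CPM in controls 1 to 4, 736, 848, 512, 747 and 787 CPM in asymptomatic livers 1 to 5, and 442, 301, 552, 603 and 555 CPM in AIH livers 1 to 5. Every AIH library lay below every control, and asymptomatic 3 fell inside the AIH range. F5 was lower in AIH than in controls (edgeR, log2 difference of -0.65 ± 0.20 (SE), adjusted p = 0.0342) and than in asymptomatic livers (edgeR, log2 difference of -0.57 ± 0.19 (SE), adjusted p = 0.0405). The call ended without control 1, 2 or 3 or AIH 1 or 2, where the log2 difference ran from -0.66 to -0.51 with adjusted p up to 0.0802. Against asymptomatic livers it ended without asymptomatic 1, 2, 4 or 5 or AIH 1, 2 or 3 (log2 difference -0.61 to -0.43, adjusted p up to 0.0915). With library totals alone it ended in both, at -0.51 (adjusted p = 0.0754) and -0.38 (adjusted p = 0.144). With sex as a term it ended in both as well, at -0.62 (adjusted p = 0.0591) and -0.47 (adjusted p = 0.302). The summed level of 14 hepatocyte markers was 134935 to 183126 CPM in controls and 146196 to 169265 in asymptomatic livers. In AIH 3 it was 187352 CPM, of which albumin (Alb) alone gave 136329 CPM. The other AIH livers had 105254 to 133466 CPM and lay below every control and asymptomatic liver. Alb itself was not called in AIH against control (edgeR, log2 difference of -0.18 ± 0.22 (SE), adjusted p = 0.600). Of the 14 markers, transferrin (Trf) was higher and fatty acid binding protein (Fabp1) lower in AIH against control. Against asymptomatic livers 1 was higher and 4 were lower, beside 19.1% and 10.7% of all genes. The part of the hepatocyte markers in the F5 result was not tested.

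F8, the cofactor missing in haemophilia A and made in liver mainly by sinusoidal endothelium, did not pass. F8 averaged 41.5 ± 6.64 CPM in controls, 33.7 ± 7.04 CPM without symptoms and 34.1 ± 16.5 CPM with AIH (SD, n = 4, 5 and 5). AIH 1, 2 and 3 measured 21.9, 19.1 and 25.7 CPM and AIH 4 and 5 49.5 and 54.2 CPM, so the AIH group reached below and above all controls. The 12 sinusoidal endothelium markers gave 0 higher and 1 lower in AIH against control.

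Among the contact factors, which start clotting on charged surfaces and release bradykinin, no gene passed in any comparison under edgeR. F11 was 53.3 ± 27.0 CPM in controls and 85.9 ± 29.8 CPM in asymptomatic livers (SD, n = 4 and 5), a log2 difference of 0.69 ± 0.34 (edgeR adjusted p = 0.491). Factor XII, F12, differed by -0.08 ± 0.13 between AIH and control and was the steadiest of them, with a control SD of 13.8 CPM around 426 CPM. Plasma prekallikrein, Klkb1, differed by -0.34 ± 0.20, but 42.7% of its 50-base stretches also occur in other gene models, mostly a readthrough of its locus, so its count is uncertain. The kininogens Kng1 and Kng2, substrates of kallikrein, share 20.0% and 18.2% of theirs with each other, and a shared read could go to neither. Kng1 differed by 0.47 ± 0.23 and Kng2 by 0.53 ± 0.21 in AIH against control (edgeR adjusted p = 0.158 and 0.0854). AIH 3 held the top value of both, with 4292 CPM for Kng1 and 569 CPM for Kng2.

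Factor XIII crosslinks fibrin. The gene of its catalytic subunit, F13a1, was called higher in AIH and that of its carrier subunit, F13b, was not called. F13a1 measured 0.351, 0.452, 0.763 and 0.335 CPM in controls 1 to 4, 0.0650, 0.235, 0.251, 0.905 and 1.26 CPM in asymptomatic livers 1 to 5, and 19.2, 10.5, 37.5, 0.839 and 4.49 CPM in AIH livers 1 to 5. The catalytic subunit gene was high in AIH 1, 2, 3 and 5, while AIH 4, at 0.839 CPM, lay just above the controls and inside the asymptomatic range. F13a1 was higher in AIH than in controls (edgeR, log2 difference of 4.91 ± 0.97 (SE), adjusted p = 0.00238) and than in asymptomatic livers (edgeR, log2 difference of 4.73 ± 0.87 (SE), adjusted p = 0.00112). Both calls held without any single library. Without AIH 3 the log2 differences were 4.17 (adjusted p = 0.00458) and 3.99 (adjusted p = 0.00257). With sex as a term the first held at 3.91 (adjusted p = 0.0153) and the second did not, at 2.24 (adjusted p = 0.280). F13b averaged 264 ± 52.9 CPM in controls, 236 ± 11 CPM without symptoms and 196 ± 30.3 CPM with AIH (SD, n = 4, 5 and 5); this carrier subunit differed by -0.43 ± 0.16 in AIH against control (edgeR adjusted p = 0.0728).

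All 20 monocyte and macrophage markers tested were higher in AIH against control and against asymptomatic livers. Their summed level was 516 to 1037 CPM in controls, 626 to 815 in asymptomatic livers and 1701 to 5305 in AIH livers. Of the 12 megakaryocyte and platelet markers 11 were tested and 11 were higher in both comparisons, with a summed level of 12.4 to 19.2 CPM in controls, 10.6 to 17.5 in asymptomatic livers and 18.4 to 139 in AIH livers. AIH 4 was the lowest AIH library for both sums and for F13a1, and also for the summed neutrophil, acute phase and large vessel endothelium markers given with other genes. The macrophage sum was highest in AIH 2 and F13a1 in AIH 3. Pf4, platelet factor 4, measured 9.99, 12.4, 13.4, 1.399 and 5.303 CPM in AIH livers 1 to 5 and 0.272 to 0.7599 CPM in controls. Ccr2, a receptor of recruited monocytes, measured 9.18 to 26.2 CPM in AIH and 1.41 to 2.46 CPM in controls. The part of either cell type in the level of F13a1 was not tested.

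**Figure D4:**
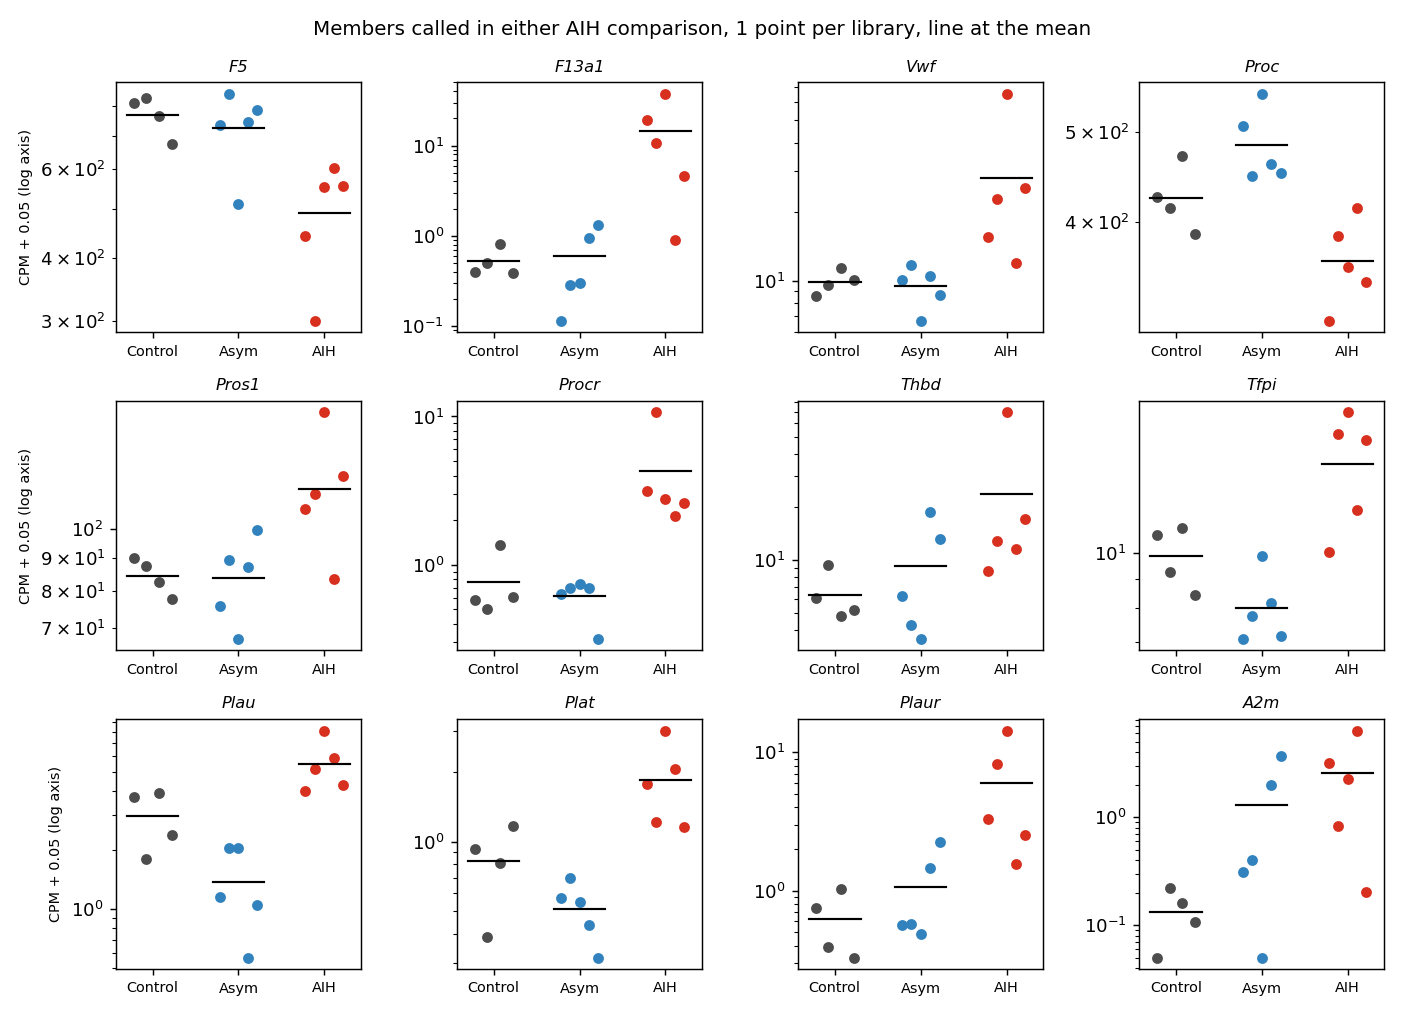
The 12 genes called in either AIH comparison, as CPM + 0.05 on log axes, 1 point per library with a line at each group's mean. F13a1 shows 4 AIH points far above the rest and AIH 4 at the control level, AIH 3 stands apart in Vwf and Thbd and AIH 2 in Procr, and F5 and Proc are the panels in which AIH lies low.

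Vwf, the multimeric carrier of factor VIII that tethers platelets, was higher in AIH in both comparisons. Vwf measured 8.53, 9.55, 11.3 and 10.1 CPM in controls 1 to 4, 10.01, 11.6, 6.65, 10.4 and 8.65 CPM in asymptomatic livers 1 to 5, and 15.4, 22.6, 65.4, 11.9 and 25.4 CPM in AIH livers 1 to 5. Every AIH library was above every other library, and AIH 3 stood furthest out. The edgeR test gave a log2 difference of 1.51 ± 0.40 (SE), adjusted p = 0.0139, against controls and a log2 difference of 1.57 ± 0.37 (SE), adjusted p = 0.00554, against asymptomatic livers. Vwf kept its call without any single library. Its log2 difference fell to a low of 0.93 against controls (adjusted p no higher than 0.0453) and 0.99 against asymptomatic livers over those fits. With sex as a term the calls ended, at 1.22 (adjusted p = 0.0609) and 0.95 (adjusted p = 0.270). Of 12 pan and large vessel endothelium markers, 5 were higher and 0 lower in AIH against control, and their summed level was 229 to 282 CPM in controls, 221 to 270.4 in asymptomatic livers and 361 to 709 in AIH livers. Vcam1, an adhesion receptor, differed by 2.35 ± 0.42 (SE, adjusted p = 0.00120) and Cd34 by 2.51 ± 0.45 (SE, adjusted p = 0.00121) on the log2 scale (edgeR). The part of endothelium or of megakaryocytes, which also make Vwf, was not tested.

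Tissue factor, F3, which starts clotting when blood meets it, did not pass. F3 measured 2.69, 1.98, 4.58 and 2.68 CPM in controls 1 to 4, 3.12, 2.41, 3.20, 2.78 and 2.73 CPM in asymptomatic livers 1 to 5, and 3.36, 2.43, 6.94, 3.64 and 2.78 CPM in AIH livers 1 to 5. AIH 3 was the highest library, and the other AIH values lay within the control range. The log2 difference of AIH against control was 0.36 ± 0.32 (SE; edgeR adjusted p = 0.461). F2r, the thrombin receptor PAR1, averaged 32.5 ± 16.5 CPM in controls, 35.2 ± 5.97 without symptoms and 61.4 ± 44.0 with AIH (SD, n = 4, 5 and 5). Its log2 difference against controls was 0.92 ± 0.43 (edgeR adjusted p = 0.150), and AIH 3 alone reached 135 CPM.

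Of the 8 anticoagulant genes 2 were higher in AIH against control, and 3 were higher and 1 lower against asymptomatic livers, beside 15.6% of all genes higher in the first comparison and 19.1% higher and 10.7% lower in the second. Procr, the endothelial protein C receptor, was higher in AIH in both comparisons. Procr measured 0.526, 0.452, 1.31 and 0.559 CPM in controls 1 to 4, 0.585, 0.647, 0.690, 0.646 and 0.266 CPM in asymptomatic livers 1 to 5, and 3.07, 10.6, 2.74, 2.07 and 2.58 CPM in AIH livers 1 to 5. Every AIH library was above every control and asymptomatic library, and AIH 2 was highest. The edgeR test gave a log2 difference of 2.56 ± 0.53 (SE), adjusted p = 0.00345, against controls and a log2 difference of 2.88 ± 0.50 (SE), adjusted p = 0.000763, against asymptomatic livers. Without AIH 2 these were 1.87 (adjusted p = 0.00336) and 2.20, both still called. With sex as a term the second ended at 2.06 (adjusted p = 0.0539) and the first did not. The control value rests on 51 counts in 4 libraries.

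Thbd, thrombomodulin, turns thrombin into the activator of protein C. Thbd measured 6.02, 9.38, 4.74 and 5.20 CPM in controls 1 to 4, 6.18, 4.24, 3.51, 18.8 and 13.2 CPM in asymptomatic livers 1 to 5, and 8.60, 12.9, 69.5, 11.5 and 17.0 CPM in AIH livers 1 to 5. AIH 3 was far above all others, asymptomatic 4 exceeded the other AIH libraries, and AIH 1 lay below control 2. Thbd was called against controls (edgeR, log2 difference of 1.91 ± 0.65 (SE), adjusted p = 0.0469) and not against asymptomatic livers (edgeR, log2 difference of 1.38 ± 0.59 (SE), adjusted p = 0.0891). The call held in 2 of 9 fits that leave out a library: it ended without any 1 of the 4 controls or without AIH 2, 3 or 5. Without AIH 3 the log2 difference was 0.98 (adjusted p = 0.178), and with sex as a term it was 1.64 (adjusted p = 0.124). Over the other 6 fits that left out a library and ended the call it ran from 1.79 to 2.14.

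Tfpi, tissue factor pathway inhibitor, was higher in AIH than in asymptomatic livers. Tfpi measured 10.7, 9.21, 11 and 8.38 CPM in controls 1 to 4, 7.02, 7.71, 9.85, 8.14 and 7.12 CPM in asymptomatic livers 1 to 5, and 9.99, 16.1, 17.6, 11.9 and 15.8 CPM in AIH livers 1 to 5. AIH and asymptomatic libraries did not overlap, while AIH 1 lay inside the control range. The edgeR test gave a log2 difference of 0.84 ± 0.18 (SE), adjusted p = 0.00273, against asymptomatic livers, which held without any single library and ended with sex as a term at 0.68 (adjusted p = 0.102). Against controls the log2 difference was 0.54 ± 0.19 (adjusted p = 0.0522, not called). The endothelial marker sums given for Vwf stand beside this gene, Procr and Thbd as well, and their part was not tested.

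The genes of protein C and its cofactor protein S were called in opposite directions against asymptomatic livers, and both calls ended with sex as a term. Proc measured 426, 414, 471 and 388 CPM in controls 1 to 4, 508, 448, 549.5, 462 and 451 CPM in asymptomatic livers 1 to 5, and 313, 387, 358, 414 and 345 CPM in AIH livers 1 to 5. The gene for protein C, the protease that inactivates factors Va and VIIIa, was lower in every AIH library than in any asymptomatic one (edgeR, log2 difference of -0.41 ± 0.13 (SE), adjusted p = 0.0264). Against controls the difference was -0.22 ± 0.14 (adjusted p = 0.266). The Proc call ended without asymptomatic 1 or 3 or AIH 1 or 5, where the log2 difference was -0.40, -0.36, -0.35 and -0.39 (adjusted p up to 0.0701). It ended too with library totals alone, at -0.21 (adjusted p = 0.273), and in the fit of the compared groups alone, at -0.41 (adjusted p = 0.0559). With sex as a term it was -0.38 (adjusted p = 0.216) and with the unaligned share as a term -0.28 (adjusted p = 0.6465), neither called. The hepatocyte marker calls given for F5 cover the same comparison, and their part in the Proc result was not tested.

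Pros1 measured 89.96, 87.4, 82.7 and 77.8 CPM in controls 1 to 4, 75.7, 89.3, 67.3, 87.1 and 99.5 CPM in asymptomatic livers 1 to 5, and 107, 113, 152, 83.5 and 121 CPM in AIH livers 1 to 5. AIH 4 was the AIH library that stayed among the asymptomatic ones. Pros1 encodes protein S, the cofactor of activated protein C. Protein S was called higher against asymptomatic livers (edgeR, log2 difference of 0.46 ± 0.16 (SE), adjusted p = 0.0397) and not against controls (0.45 ± 0.17, adjusted p = 0.0711). Its call held in 3 of 10 fits that leave out a library, ending without asymptomatic 1, 3 or 4 or AIH 1, 2, 3 or 5, with log2 differences from 0.34 to 0.49 and adjusted p up to 0.121. It also ended under RLE factors, at 0.44 (adjusted p = 0.0531), with the 20 most abundant genes removed, at 0.44 (adjusted p = 0.0514), with no filter on low counts, at 0.40 (adjusted p = 0.120), in the fit of the compared groups alone, and with sex or the unaligned share as a term.

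Antithrombin, the main plasma inhibitor of thrombin and factor Xa, differed little between the group means. Serpinc1 measured 2202, 2288, 2433 and 1849.6 CPM in controls 1 to 4, 2098, 2299, 2326, 2018 and 1923 CPM in asymptomatic livers 1 to 5, and 1824, 1746, 2362, 2237 and 2121 CPM in AIH livers 1 to 5. AIH 1 and 2 lay below all other libraries and control 3 above them, with the rest overlapping, and the log2 difference of AIH against control was -0.09 ± 0.15 (SE; edgeR adjusted p = 0.709). Serpind1 averaged 613 ± 146 CPM in controls, 671 ± 74.2 CPM without symptoms and 547 ± 91.3 CPM with AIH (SD, n = 4, 5 and 5); this is heparin cofactor II. Proz averaged 387 ± 94.0 CPM in controls, 407 ± 50.6 CPM without symptoms and 303 ± 46.2 CPM with AIH, with a log2 difference of -0.43 ± 0.18 against asymptomatic livers (edgeR adjusted p = 0.0825). Proz, protein Z, lies beside F10 on chromosome 8 at chr8:13060914-13076026, yet its log2 difference against controls was -0.35 ± 0.19 where that of F10 was 0.38 ± 0.18; the contrast between the 2 genes was not tested.

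Of the plasminogen activation genes, 2 of 4 were higher in AIH against control and 3 of 4 against asymptomatic livers, beside 15.6% and 19.1% of all genes. Plg, the precursor of plasmin, was not among them. Plg measured 2296, 2927, 3045 and 2219.9 CPM in controls 1 to 4, 2570.3, 2709, 2558, 2661 and 2695 CPM in asymptomatic livers 1 to 5, and 2573, 2279.5, 3355, 2700.5 and 2789 CPM in AIH livers 1 to 5. Its groups overlap, with a log2 difference of 0.06 ± 0.16 against controls (SE; edgeR adjusted p = 0.816).

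Plau and Plat are the urokinase and tissue type plasminogen activators. Plau measured 3.68, 1.75, 3.87 and 2.35 CPM in controls 1 to 4, 1.11, 2.0, 2.01, 0.517 and 0.998 CPM in asymptomatic livers 1 to 5, and 3.94, 5.10, 8.04, 5.82 and 4.24 CPM in AIH livers 1 to 5. Plat measured 0.877, 0.339, 0.763 and 1.117 CPM in controls 1 to 4, 0.520, 0.647, 0.502, 0.388 and 0.266 CPM in asymptomatic livers 1 to 5, and 1.73, 1.17, 2.97, 2.01 and 1.11 CPM in AIH livers 1 to 5. Plau and Plat separated AIH from asymptomatic livers without overlap, and AIH from controls without overlap for Plau but not for Plat, where control 4 reached AIH 5. Against asymptomatic livers Plau was higher by 2.02 ± 0.36 (SE, edgeR adjusted p = 0.000921). Plat was higher by 1.93 ± 0.38 in the same comparison (adjusted p = 0.00194). Both calls held without any single library and with sex as a term, and ended with the unaligned share as a term, at 1.70 (adjusted p = 0.112) and 1.81 (adjusted p = 0.129).

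Against controls, Plau differed by 0.90 ± 0.37 (edgeR adjusted p = 0.100, not called) and Plat was called at 1.205 ± 0.39 (adjusted p = 0.0400). The Plat call ended without control 1, 2 or 3 or AIH 1, 3 or 4, with log2 differences from 0.93 to 1.25 and adjusted p up to 0.118. It also ended with no filter on low counts, at 1.17 (adjusted p = 0.0864), in the fit of the compared groups alone, at 1.203 (adjusted p = 0.0709), and with the unaligned share as a term, at 1.19 (adjusted p = 0.0558). Asymptomatic livers held less of both on average than controls: 1.33 ± 0.658 against 2.91 ± 1.03 CPM for Plau and 0.465 ± 0.144 against 0.774 ± 0.325 CPM for Plat (SD, n = 5 and 4). Those differences did not pass edgeR (adjusted p = 0.420 and 0.554), and limma-voom with quality weights called the one for Plau. Under that setting 610 of all 14638 genes were called higher and 689 lower. The Plat values rest on 37 to 169 counts per group.

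Plaur, the urokinase receptor that leukocytes carry, was higher in AIH in both comparisons. Plaur measured 0.701, 0.339, 0.980 and 0.279 CPM in controls 1 to 4, 0.520, 0.529, 0.439, 1.42 and 2.20 CPM in asymptomatic livers 1 to 5, and 3.27, 8.21, 14.3, 1.51 and 2.47 CPM in AIH livers 1 to 5. All AIH libraries were above all controls, and asymptomatic 5 exceeded AIH 4. The edgeR test gave a log2 difference of 3.35 ± 0.74 (SE), adjusted p = 0.00482, against controls and a log2 difference of 2.54 ± 0.64 (SE), adjusted p = 0.00876, against asymptomatic livers. Both held without any single library; without AIH 3 they were 2.72 (adjusted p = 0.0109) and 1.91 (adjusted p = 0.0297). Under limma-voom with quality weights the second stayed called at 1.76 (adjusted p = 0.0172). With sex as a term it ended, at 1.35 (adjusted p = 0.393). The macrophage marker sums given for F13a1 were higher in AIH as well. AIH 2 was highest for them, and AIH 3 was highest for Plaur. Of the 12 neutrophil markers, 12 were higher in both comparisons. Their sum was 2.98 to 5.99 CPM in controls, 2.53 to 10.5 in asymptomatic livers and 25.2 to 1421 in AIH livers. AIH 3 was highest for this sum, followed by AIH 2 at 1368 CPM, and Plaur had the same order. The part of either cell type in the level of Plaur was not tested.

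The antifibrinolytics gave 1 call. A2m measured 0, 0.170, 0.109 and 0.0559 CPM in controls 1 to 4, 0.260, 0.353, 0, 1.94 and 3.66 CPM in asymptomatic livers 1 to 5, and 3.12, 0.778, 2.21, 6.32 and 0.152 CPM in AIH livers 1 to 5. A2m, the broad protease inhibitor alpha-2-macroglobulin, had 6 counts in the 4 controls together. Every asymptomatic library except asymptomatic 3 lay within the AIH range, and AIH 5 lay at the control level. It was called against controls (edgeR, log2 difference of 4.78 ± 1.34 (SE), adjusted p = 0.0203), where the ratio of pooled CPM was 28.9 with a 95% counting interval of 13.1 to 79.6. The call ended without control 1, at 4.38 (adjusted p = 0.0593), and without control 4, at 4.61 (adjusted p = 0.0587), and without AIH 4 the difference was 4.11 (adjusted p = 0.0361). Under limma-voom with quality weights it ended at 4.11 (adjusted p = 0.0945). Against asymptomatic livers it was 1.02 ± 0.93 (adjusted p = 0.434). Cpb2 averaged 262 ± 59.4 CPM in controls, 385 ± 95.5 CPM without symptoms and 392 ± 86.4 CPM with AIH (SD, n = 4, 5 and 5); the product of this gene, TAFI, trims fibrin so that plasminogen binds less. Cpb2 differed by 0.58 ± 0.23 against controls (edgeR adjusted p = 0.0895). Serpinf2, the plasmin inhibitor alpha-2-antiplasmin, and Hrg differed by 0.30 ± 0.22 and 0.07 ± 0.20 in the same comparison and were not called. Hrg, Kng2 and Kng1 are neighbours on chromosome 16 (chr16:22951072-22961656, chr16:22985854-23029482 and chr16:23057865-23082078).

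Between asymptomatic and control livers edgeR called 0 of the 35 genes, and 0.00% of all genes. At an unadjusted p under 0.05 there were 3, Plau, A2m and Cpb2, beside 10.5% of all genes. The groups were free of overlap for 0 of the 35, beside 1.27% of all genes higher and 1.15% lower. DESeq2 called 0 of the 35, beside 49 higher and 69 lower among all 14638 genes. Under limma-voom with quality weights Cpb2 and F11 were called higher and Plau lower, beside 610 higher and 689 lower among all 14638. The median log2 difference of the 35 was 0.070. The widest differences were 3.77 ± 1.36 for A2m and -1.13 ± 0.38 for Plau (SE). Precision was poorest for A2m, F13a1 and Plaur, whose SEs were 1.36, 0.98 and 0.72 log2 units in this comparison.

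Of 43 further genes of the pathway outside the 35, 39 were tested, and 11 were higher and 1 lower in AIH against control, with a median log2 difference of 0.11, beside 15.6% and 6.08% of all genes. Against asymptomatic livers 12 were higher and 3 lower, beside 19.1% and 10.7%, and between asymptomatic and control 0. Fgl2, a membrane prothrombinase of macrophages and endothelium, measured 41.7 ± 12.5 CPM in AIH and 8.60 ± 1.204 in controls (SD, n = 5 and 4), a log2 difference of 2.28 ± 0.25 (SE, adjusted p = 3.37e-05). Anxa2, the cell surface receptor that binds plasminogen and tissue plasminogen activator, measured 55.3 ± 25.1 against 11.99 ± 1.41 CPM, a log2 difference of 2.20 ± 0.29 (SE, adjusted p = 0.000112). Thbs1, a platelet and matrix protein, and Lrp8, a lipoprotein receptor, differed by 3.11 ± 0.55 (SE, adjusted p = 0.00122) and 3.67 ± 0.70 (SE, adjusted p = 0.00185), all by edgeR. Of 19 tested regulators of hepatic clotting genes 4 were higher and 3 lower in AIH against control.

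**Figure D5:**
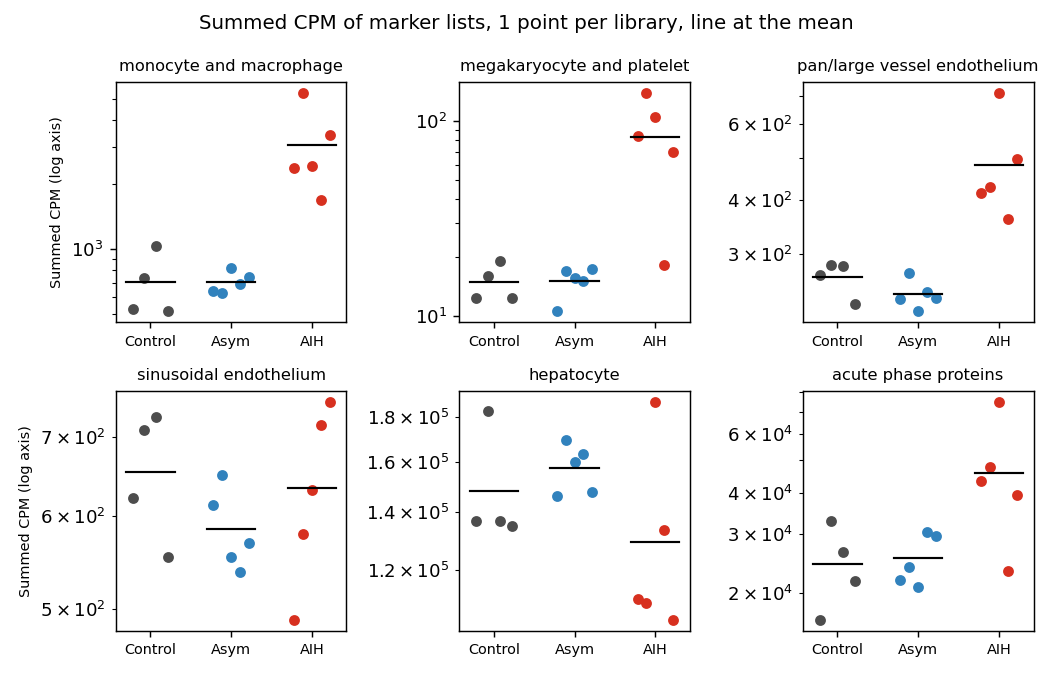
Summed CPM of 6 marker lists on log axes, 1 point per library with a line at each group's mean. The macrophage, platelet and pan-endothelial sums are higher in AIH, except that the platelet sum of AIH 4, 18.4 CPM, lies inside the control range. The sinusoidal sums overlap between groups. The hepatocyte sum of AIH 3, 187352 CPM, is the highest of all libraries, and the other AIH livers lie below every control and asymptomatic liver. Albumin (Alb) alone gives 136329 CPM of the AIH 3 sum.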

How the data were processed

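RNA of 14 mouse livers was analysed from raw counts per Ensembl gene, deposited by the authors as 51912 gene rows and 5 summary rows a library. The summary rows stayed out of library sizes and tests. Per the submitters' processing notes, HISAT2 2.1.0 and HTSeq 0.9.0 were among the tools, beside cutadapt 1.12, FastQC 0.11.5, R 4.0 and edgeR, without roles. The strand setting, read length and annotation release are not given in the sources used here, so reads of overlapping or antisense genes cannot be told apart. Such overlaps touch Fgg, F5, Klkb1, Serpinc1 and Plg.

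Symbols and positions came from GENCODE (GRCm38), which held 51719 of the gene IDs. Counts were filtered with filterByExpr (14638 genes left, all 35 described among them), scaled by TMM and tested by quasi-likelihood in edgeR 4.0.16 (under R 4.3.3) in 1 two-sided fit of the 14 libraries, with Benjamini-Hochberg adjustment over all genes and a threshold of 0.05. Standard errors were derived from the F statistic. The script was tested on simulated data. Counting intervals cover counting error only. Levels per kilobase used the length of 1 principal transcript a gene. Figures were drawn with matplotlib 3.10.9.

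The 35 genes and the 13 lists of other genes (207 symbols) were chosen with earlier results of these data known. Values in every library are given for genes called in an AIH comparison and for F2, Fga, Fgb, Fgg, Plg, Serpinc1, F3, Thbd and Vwf. Up to 4 further pathway genes and 2 genes of every other list were taken by smallest p. The alternatives were RLE factors, library totals, removal of the 20 most abundant genes, 2 other filters, DESeq2 1.42.0, limma-voom (limma 3.58.1), a robust spread, a fit of the compared groups alone, sex or unaligned share as a term, each sex alone, and each library left out. Both terms together and an interaction of sex with AIH were added after the data were seen.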

Additional observations from a re-analysis of the deposited data

Results flagged for a closer look

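The gap between the highest or lowest library and its nearest neighbour was unusually wide, against the group's range, in 9 of 97 groups checked among these genes, where chance gives about 1 in 20. Of these, 5 concern AIH 3. There Vwf was 65.4 CPM (the other AIH livers 11.9 to 25.4), Thbd 69.5 CPM (8.60 to 17.0), F3 6.94 CPM (2.43 to 3.64), Kng1 4292 CPM (1845 to 2515) and Serpinf2 1522 CPM (807 to 996). Procr was 10.6 CPM in AIH 2 and 2.07 to 3.07 CPM in the others. Fga was 7652 CPM in control 2, beside 3297 to 4028 CPM in the other controls. In asymptomatic 2, F7 was 72.9 CPM (others 100.1 to 108) and Proz 317 CPM (421 to 438). Arntl, a circadian clock gene, also set some libraries apart. It was 21.8 and 26.6 CPM in controls 2 and 4, 12.4 in asymptomatic 2 and 17.0 in AIH 4. Other libraries had 0.585 to 5.91 CPM. The gaps of control 2 and asymptomatic 2 fell in libraries high for Arntl, and those of AIH 2 and AIH 3 did not. The part of Arntl in the differences of F11 and Cpb2 between asymptomatic and control livers was not tested. The cause of these gaps was not tested.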

How the results depend on the processing

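With 7 genes called higher and 1 lower in AIH against control, library totals alone gave 13 and 0, DESeq2 2 lower, only the groups compared 0 lower, sex as a term 0 lower, sex and unaligned share as terms 0 lower, females alone 4 and 0, and males alone 0 and 0. Leaving out 1 library at a time gave 4 to 9 higher and 0 to 2 lower. Over all genes, 2284 higher and 890 lower in the main fit became 1890 and 600 with sex as a term. In females alone they became 1379 and 367. Asymptomatic against control went from 0 and 0 to 2 higher and 1 lower under limma-voom with quality weights and stayed at 0 in the other settings. Over all 14638 genes limma-voom went from 0 and 0 to 610 and 689. With 8 higher and 2 lower in AIH against asymptomatic livers, library totals gave 0 lower, limma-voom 4 lower, only the groups compared 0 lower, sex as a term 2 and 0, unaligned share as a term 0 and 0, both terms 0 and 0, and males alone 2 and 0. Leaving out 1 library gave 0 to 3 lower. Over all genes, 2796 higher and 1559 lower in the main fit became 1222 and 150 with sex as a term. They became 544 and 18 with the unaligned share and 603 and 20 with both terms. For Pros1 in AIH against asymptomatic livers, the log2 difference was 0.46 in the main fit and 0.25 with sex as a term. Within males, where AIH has 1 library, it was -0.00545. A fit on 1 AIH male cannot tell sex from that animal. The cause of these shifts was not tested, beyond the smaller number of libraries within a sex and the 1 AIH male, which was taken to vary like the rest. AIH against asymptomatic livers could not be compared within females. An interaction of sex with AIH rests on the same AIH male and says nothing on stability. The smallest unadjusted p among the 35 was 0.0573, for F13a1 (edgeR, adjusted p = 0.9999), with the female effect larger by 3.59 on the log2 scale. Of the single-gene values under all settings, 2098 kept their call or stayed uncalled within 1 SE of the main value. Some of these that kept their call (F13a1, Plaur, Procr and A2m) had a fold moved by over 1.5 times. Another 135 stayed uncalled but moved by 1 SE or more, 29 became called and 109 lost their call. Depth limits A2m, F13a1, Plaur, Procr and Plat most, with 6 to 55 counts in the controls together. No paired analysis was possible because the replicate numbers follow accession order and pair no libraries.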
